A study of Mus musculus with 9 samples.

Results

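The AP-1 genes described here are 10 members of the Fos, Jun and ATF families, namely Jun, Junb, Jund, Fos, Fosb, Fosl1, Fosl2, Atf3, Batf and Batf3. They were taken as a named list from the gene table, in which all 10 were found among 56289 gene identifiers by their Ensembl mouse identifier. RNA was sequenced from 9 libraries labelled RAW264.7, a mouse macrophage-like cell line of BALB/c origin. There were 3 libraries in each of 3 groups: TNF plus WBG (24 h with TNF-α and WBG, the Wang Bi granules, which are a herbal medicine), TNF (TNF-α alone for 24 h) and untreated cells, for which the labels give no time in culture. The dose of neither agent is stated in the labels. Time in culture and TNF-α therefore cannot be told apart in comparisons with untreated cells. All expression levels below are FPKM (a share of all fragments divided by gene length), so that levels of different genes can be set side by side.

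AP-1 is a transcription factor made of pairs of proteins that hold each other through a leucine zipper and touch DNA with the adjoining basic region. Jun proteins pair with each other or with Fos proteins, Fos proteins need a Jun partner, and ATF and BATF proteins pair with Jun proteins as well. Many of these genes are immediate early genes: their transcription climbs briefly after a stimulus such as TNF-α, driven by kinases of the MAPK family, and then subsides, so that the make-up of AP-1 changes with time. The only treated time measured here was 24 h, and nothing before it was sampled.

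The libraries were similar in overall output, with 12611 to 12737 genes at 1 FPKM or more and a Pearson r of 0.987 to 0.989 across genes within groups, against 0.979 to 0.989 between groups. The transcripts went against the labelled cell type. Of 18 macrophage markers, 2 had a mean of at least 1 FPKM (Cd14 and Cd68), and Ptprc, Itgam, Adgre1, Tyrobp and Cybb were listed at 0 in all 9 libraries. Of 16 fibroblast markers, 14 had a mean of at least 1 FPKM, with Col1a1 between 791 and 1021 FPKM. The others were Thy1 (mean 0.012 FPKM) and Lum, listed at 0 in every library. Among the 14, Dcn (mean 2.29 FPKM) and Fbln2 (mean 1.445 FPKM) were low. The summed macrophage markers ran from 8.31 to 10.8 FPKM with TNF plus WBG, from 7.19 to 8.37 FPKM with TNF and from 6.30 to 7.54 FPKM in untreated libraries. Cd14 alone made up most of these sums. Its means were 6.64 FPKM with TNF plus WBG, 5.66 FPKM with TNF and 4.59 FPKM in untreated libraries. Summed fibroblast markers ran from 4880 to 5020 FPKM with TNF plus WBG, from 4950 to 5200 FPKM with TNF and from 4640 to 5010 FPKM in untreated libraries. Single markers moved in both directions. Of the 14 tested with limma, 4 rose with TNF relative to untreated (Col6a1 by 0.63 on the log2 scale). A fall was seen for 3 (Postn by 0.59, Pdgfrb by 0.51 and Vim by 0.28). Over all genes tested 6.43% were higher and 4.21% lower. When 1 library was left out, the falls ranged from 2 (as without TNF replicate 1) to 4 (without TNF replicate 2). No marker of T and B cells or of epithelial and endothelial cells, 8 in each list, had a mean of 1 FPKM. The part of cell type in the results below was not tested. In bulk RNA such as this, fewer cells of one kind and less RNA per cell cannot be told apart.

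The AP-1 RNA of these cells was mostly Jun-type. In the TNF plus WBG libraries Jund had the highest mean (103 ± 4.6 FPKM, SD, n = 3), followed by Junb, Jun, Atf3, Fosl2, Fosl1, Fos and Fosb. The order was the same in the TNF libraries. In untreated libraries Jun stood first with 101 ± 1.77 FPKM, ahead of Jund, Junb, Atf3, Fosl2, Fos and Fosl1. Neighbours in these orders had ranges that did not meet, except Jund and Junb with TNF plus WBG and Fos and Fosl1 in untreated libraries, and except among the 3 lowest genes. Fosb, Batf3 and Batf stayed below 1 FPKM in every library.

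**Figure D1:**
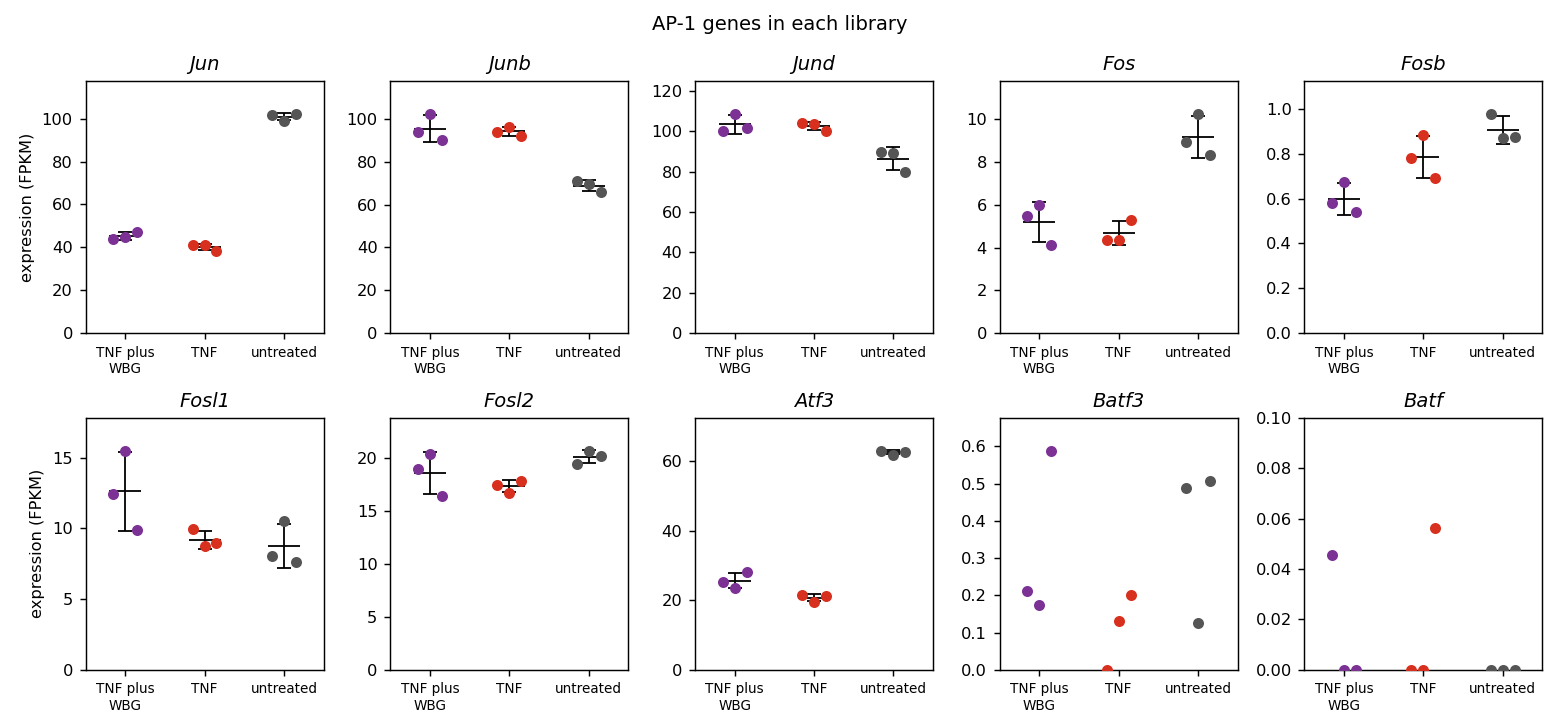
Expression of the 10 AP-1 genes in each library (vertical axes, FPKM, each with its own scale from 0; horizontal axes, group). Points are libraries, and the horizontal line with its bar is the mean ± SD of 3 libraries, left out for Batf3 and Batf, which have libraries at 0; Jun and Atf3 stand far lower in both TNF-treated groups than in untreated libraries, and Junb and Jund higher.

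The promoter windows of Fos, Jun and Atf3, the AP-1 genes that were lower with TNF, and of Junb, which was higher, are shown so that their letters can be compared. They are the 250 bases before the annotated start in RefSeq (build GRCm38.p6), 5′ to 3′ along the gene. Capitals mark TGACGT (the core of the cAMP response element), read on either strand, and TGACATCA (an AP-1-like site of the Jun promoter). AP-1-like sites with other letters, such as TTACCTCA in the Jun window, were not searched for and stand in lower case. The Fos window is chr12:85473640-85473889 on the plus strand, that of Jun chr4:95052223-95052472, that of Atf3 chr1:191183334-191183583 and that of Junb chr8:84978749-84978998, these 3 on the minus strand.
Fos: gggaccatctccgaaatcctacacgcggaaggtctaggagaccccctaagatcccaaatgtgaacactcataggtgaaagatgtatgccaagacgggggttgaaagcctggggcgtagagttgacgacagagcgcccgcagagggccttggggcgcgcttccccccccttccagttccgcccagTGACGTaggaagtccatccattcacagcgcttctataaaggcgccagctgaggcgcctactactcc
Jun: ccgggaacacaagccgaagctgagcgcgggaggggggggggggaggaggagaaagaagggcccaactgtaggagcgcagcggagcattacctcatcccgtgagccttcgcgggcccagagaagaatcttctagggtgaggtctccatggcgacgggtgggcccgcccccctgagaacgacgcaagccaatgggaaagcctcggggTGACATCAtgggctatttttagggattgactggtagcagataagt
Atf3: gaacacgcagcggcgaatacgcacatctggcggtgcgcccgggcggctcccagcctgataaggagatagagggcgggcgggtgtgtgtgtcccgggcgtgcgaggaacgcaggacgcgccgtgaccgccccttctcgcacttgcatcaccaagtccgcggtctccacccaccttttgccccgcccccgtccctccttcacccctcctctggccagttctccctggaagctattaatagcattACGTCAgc
Junb: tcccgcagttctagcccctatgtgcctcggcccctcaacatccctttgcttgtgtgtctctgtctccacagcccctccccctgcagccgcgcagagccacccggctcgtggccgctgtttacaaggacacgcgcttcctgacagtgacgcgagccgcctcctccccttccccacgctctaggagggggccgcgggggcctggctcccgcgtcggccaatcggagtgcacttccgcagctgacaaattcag
A window was held for 9 of the 10 genes (not Fosl1). TGACGT was found in 3 of these 9 windows, from base -66 to -61 of Fos, on the opposite strand from -8 to -3 of Atf3, and in Batf, counting back from -1 at the last base before the start. It occurs in 6.47% of all 32851 RefSeq windows of the same length, on either strand. TGACATCA was found in 1 of the 9, from -45 to -38 of Jun, and in 2.93% of all windows. The window of Jund, which was also higher with TNF, held neither TGACGT nor TGACATCA and is not printed. The classical AP-1 site TGANTCA (6.75% of all windows) and the full response element TGACGTCA (1.55%), which contains TGACGT, were in 0 of the 9. The motifs were chosen after the windows had been read, and a match describes letters only.

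The first comparison set TNF libraries against untreated ones. Among the 10 genes, Jun, Fos and Atf3 fell, Junb and Jund rose, and Fosl1 and Fosl2 did not pass the test. The other 3 genes never reached 1 FPKM and were not tested. Called here means a Benjamini-Hochberg adjusted p under 0.05 from limma over the 13026 genes with at least 1 FPKM in at least 3 libraries. With 5 of the 7 genes tested called, the background is that 10.6% of all genes tested were called, 6.43% higher and 4.21% lower. Without TNF replicate 3, 920 genes were called in place of 1386, and the 549 lower calls became 353 without untreated replicate 3, 356 without TNF replicate 2 and 359 without TNF replicate 3. Non-overlapping groups were seen for 6 of the 7 genes, 2 with TNF above and 4 with TNF below, against 30% of all genes tested (15.5% above and 14.4% below), and 6 of 7 passed at an unadjusted p under 0.05, against 24%. Since the labels leave it unsaid whether replicates were separate cultures, each p-value refers to the spread between these libraries, which may be technical.

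Jun (ENSMUSG00000052684), like Junb and Jund a possible partner of Fos proteins, had 41.3, 40.9 and 38.5 FPKM in TNF libraries. In untreated libraries it had 102, 99.0 and 102 FPKM. The groups lay far apart, with every TNF library below every untreated one. Mean Jun expression with TNF was 0.398 times the untreated mean, a log2 fold change of -1.31 ± 0.04 (SE; limma adjusted p = 3.71e-07). Ordered by log2 fold change, this was the 23rd largest decrease among all genes tested. Exons of Jun share 232 bases with the antisense gene Junos, which stayed at or below 1.96 FPKM and had a log2 fold change of -0.12 (limma adjusted p = 0.726). The kit described does not mark strand, so reads in a stretch shared by opposite genes cannot be assigned.

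The other Jun-type genes went the other way. Junb (ENSMUSG00000052837), a partner usually regarded as a weaker activator than Jun, had 94.0, 96.3 and 92.1 FPKM in TNF libraries and 71.1, 69.5 and 65.9 FPKM in untreated libraries. All TNF libraries were above all untreated ones, with a log2 fold change of 0.45 ± 0.05 (limma adjusted p = 0.000699) and a ratio of means of 1.37. Jund (ENSMUSG00000071076), the Jun gene that many resting cells express steadily, had 104, 104 and 100.4 FPKM in TNF libraries and 89.9, 89.4 and 79.8 FPKM in untreated libraries. Its groups did not overlap either, and its log2 fold change was 0.25 ± 0.05 (limma adjusted p = 0.0186). The call of Jund was lost without TNF replicate 1 (adjusted p = 0.0609, limma) and without TNF replicate 2 (0.0616). Junb shares 173 exon bases with Prdx2, at up to 197 FPKM on the opposite strand, whose log2 fold change was 0.02 (limma adjusted p = 0.792). Jund shares 877 of its 1668 exon bases with the antisense gene Gm11175, so its values are less certain. Gm11175 stayed at or below 3.40 FPKM and had a log2 fold change of 0.26 (limma adjusted p = 0.586).

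The make-up of the Jun-type RNA differed between the groups by more than its sum did. Jun, Junb and Jund together summed to 237 ± 5.35 FPKM with TNF and 256 ± 7.58 FPKM without (SD, n = 3). Jun made up 17.2, 17.0 and 16.7% of that sum in TNF libraries, against 38.7, 38.4 and 41.2% in untreated libraries. Junb made up 39.7 ± 0.40% with TNF and 26.9 ± 0.24% without. The ratio of Jun to Junb was 0.427 ± 0.011 with TNF and 1.47 ± 0.07 in untreated libraries, so that Jun was the lower of the pair in each TNF library and the higher in each untreated one. These sums and shares were formed over genes listed with their values known and were given no test.

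**Figure D2:**
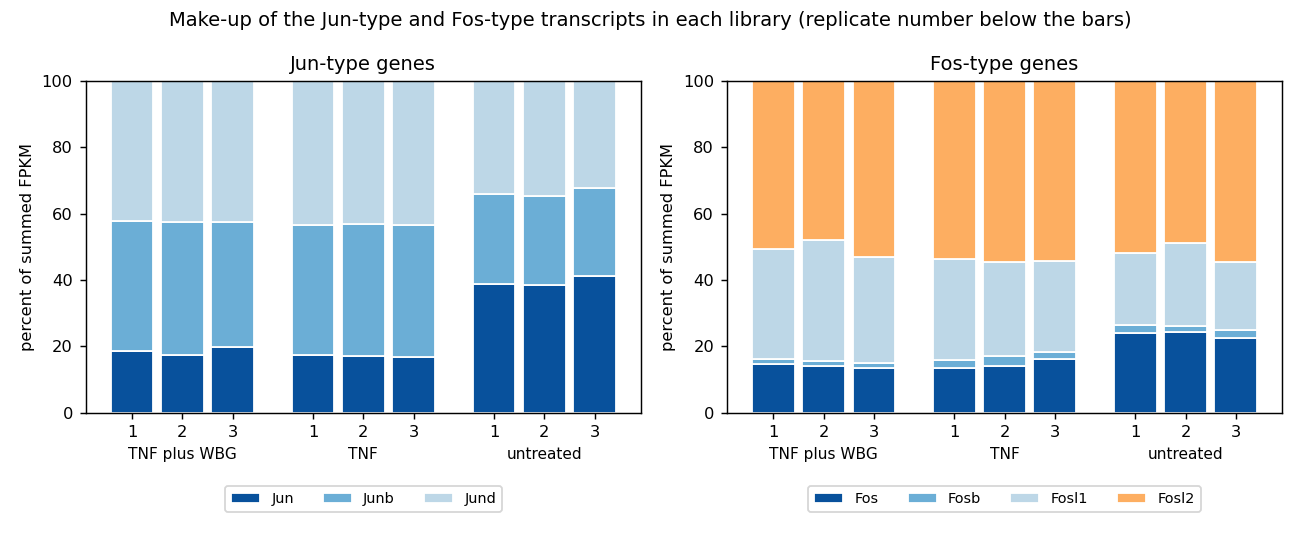
Share of each gene in the summed FPKM of the Jun-type genes (left) and the Fos-type genes (right), as percent (vertical axes), in each library (bars, replicate numbers below, grouped by treatment). Jun takes 16.7 to 19.8% of the Jun-type sum in the 6 libraries that received TNF-α and 38.4 to 41.2% in the 3 untreated ones.

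Among the Fos-type genes only Fos was called. Fos (ENSMUSG00000021250), the founding member and the classic immediate early gene, had 4.35, 4.34 and 5.31 FPKM in TNF libraries and 8.94, 10.3 and 8.35 FPKM in untreated libraries. Every TNF library was below every untreated one, and the mean was 0.508 times the untreated mean (log2 fold change -0.85 ± 0.13, limma adjusted p = 0.00291). Fos was the gene with the 73rd largest decrease by log2 fold change.

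Fosl2 (Fra-2), which lacks the activation domain of Fos, had 17.5, 16.7 and 17.8 FPKM with TNF and 19.5, 20.7 and 20.2 FPKM without. These ranges did not overlap, yet the log2 fold change of -0.21 ± 0.07 did not pass (limma adjusted p = 0.122, over the alternatives 0.0408 to 0.276). Fosl2 passed when TNF plus WBG replicate 3 was left out (0.0408) and when only the 6 libraries compared were fitted (0.0497). Fosl1 (Fra-1), a gene that AP-1 itself activates in many cells, had 9.93, 8.75 and 8.94 FPKM with TNF and 8.05, 10.5 and 7.64 FPKM without. The ranges of Fosl1 overlapped, and its log2 fold change of 0.08 had a 95% interval from -0.28 to 0.43 (limma adjusted p = 0.815). Fosl1 shares 1163 of its 2033 exon bases with Ccdc85b on the opposite strand, so all values of Fosl1 given here are less certain. Ccdc85b had 13.7 FPKM with TNF and 11.3 FPKM without (log2 fold change 0.26, limma adjusted p = 0.022).

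Fosb, a Fos relative well known from long-lasting stimulation of neurons, was close to 1 FPKM. It had 0.780, 0.884 and 0.694 FPKM with TNF and 0.978, 0.869 and 0.874 FPKM without. The ranges of Fosb overlapped, and an exact two-sided permutation test over the libraries gave p = 0.3, where 3 against 3 libraries cannot go below 0.1. The share of Fos in the Fos-type sum was 14.6 ± 1.47% with TNF and 23.5 ± 0.91% without. That of Fosl1 was 28.8 ± 1.63% with TNF and 22.3 ± 2.23% without, although Fosl1 itself was not called and Fos was lower. Fosl2 held the largest share in all 9 libraries, between 48.0 and 54.6%.

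Atf3 (ENSMUSG00000026628), a stress-induced factor that represses as a homodimer and pairs with Jun proteins, had the largest log2 fold change of FPKM + 1, in size, among the 7 genes tested. It had 21.5, 19.5 and 21.2 FPKM in TNF libraries, against 63.1, 62.0 and 62.7 FPKM in untreated libraries. No TNF library came near an untreated one. Mean Atf3 with TNF was 0.331 times the untreated mean (log2 fold change -1.55 ± 0.06, limma adjusted p = 1.39e-06), the 14th largest decrease among the genes tested. No exon of Atf3 overlaps another annotated gene in GENCODE M21.

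The BATF genes, known from lymphocytes and dendritic cells, were at or near 0. Batf was listed at 0, 0 and 0.056 FPKM with TNF and at 0 in all 3 untreated libraries. Batf3 had 0, 0.131 and 0.201 FPKM with TNF and 0.488, 0.125 and 0.507 FPKM without. At this level the groups overlapped for both, and the exact two-sided permutation test gave p = 0.3 for Batf3.

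**Figure D3:**
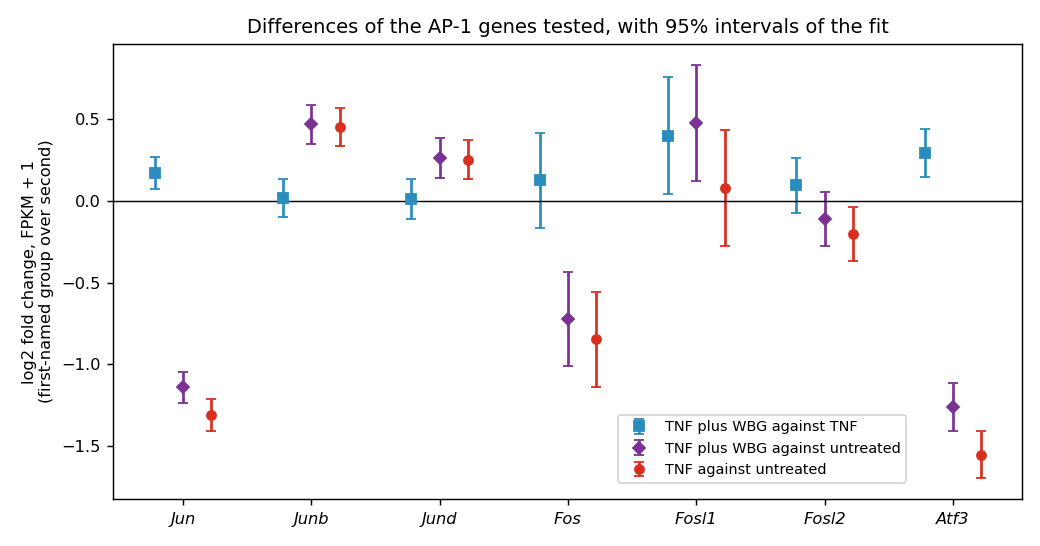
Log2 fold change of FPKM + 1 (vertical axis, first-named group over second) for the 7 AP-1 genes tested (horizontal axis) in 3 comparisons, with bars for the 95% interval of the limma fit. In TNF against untreated Jun (-1.31), Fos (-0.85) and Atf3 (-1.55) lie below 0 and Junb (0.45) and Jund (0.25) above, and in TNF plus WBG against TNF no gene passed the test.

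The second comparison set TNF plus WBG libraries against TNF libraries. It uses the same TNF libraries as the first comparison, on the other side, so both are not independent. Low values in those libraries would alone make a gene look lower with TNF and higher with WBG. Of the 7 AP-1 genes tested 0 were called by limma, where 0.0998% of all genes were (0.0691% higher and 0.0307% lower), and the count was 0 in each alternative limma fit as well. The 13 genes called over all became 8 without untreated replicate 1, and the 4 of them that were lower became 1 without that library and 2 without untreated replicate 3. At an unadjusted p under 0.05, 3 of the 7 genes passed (Atf3, Jun and Fosl1, all higher with WBG), against 9.06% of all genes. Intervals below are 95% intervals of the fit.

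Atf3 had 25.3, 23.6 and 28.0 FPKM with TNF plus WBG and 21.5, 19.5 and 21.2 FPKM with TNF. Each WBG library lay above each TNF library, while all stayed below the untreated values. The log2 fold change was 0.29 ± 0.06, with an interval from 0.15 to 0.44 (limma adjusted p = 0.312, over the alternatives 0.225 to 0.528). Jun had 43.9, 44.8 and 47.3 FPKM with TNF plus WBG and 41.3, 40.9 and 38.5 FPKM with TNF. Its groups did not overlap either, and its log2 fold change was 0.17 ± 0.04, with an interval from 0.07 to 0.26 (limma adjusted p = 0.394). Groups that did not overlap were seen for 2 of the 7 AP-1 genes, both with WBG above, and for 14.7% of all genes tested (7.03% above and 7.72% below).

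Fosl1 had 12.5, 15.5 and 9.87 FPKM with TNF plus WBG and 9.93, 8.75 and 8.94 FPKM with TNF. The TNF plus WBG libraries of Fosl1 spread widely and one of them fell inside the TNF range, with a log2 fold change of 0.40 ± 0.16 (interval 0.04 to 0.75, limma adjusted p = 0.508). Fos had 5.47, 5.98 and 4.14 FPKM with TNF plus WBG and 4.35, 4.34 and 5.31 FPKM with TNF. Those ranges overlapped (log2 fold change 0.12, interval -0.17 to 0.41, limma adjusted p = 0.828). Fosl2 had 19.0, 20.4 and 16.5 FPKM with TNF plus WBG and 17.5, 16.7 and 17.8 FPKM with TNF, which overlapped too (log2 fold change 0.09, interval -0.07 to 0.26, limma adjusted p = 0.756).

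Junb had 93.7, 102 and 90.2 FPKM with TNF plus WBG, on both sides of its TNF values of 94.0, 96.3 and 92.1 FPKM, and a log2 fold change of 0.02 (interval -0.10 to 0.13, limma adjusted p = 0.954). Jund had 100.1, 109 and 102 FPKM with TNF plus WBG, again around its TNF values of 104, 104 and 100.4 FPKM, with a log2 fold change of 0.01 (interval -0.11 to 0.13, limma adjusted p = 0.981). For Junb and Jund these 95% intervals reached about 0.13 on the log2 scale at most, in either direction. They refer to the spread between these libraries only. Fosb, one of the AP-1 genes with a lower mean, had 0.579, 0.676 and 0.541 FPKM with TNF plus WBG and 0.780, 0.884 and 0.694 FPKM with TNF. No WBG library of Fosb reached a TNF library, at the smallest p that an exact two-sided permutation test allows here (p = 0.1). Batf was listed at 0.046, 0 and 0 FPKM with TNF plus WBG, and Batf3 at 0.213, 0.173 and 0.589 FPKM, both overlapping TNF.

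TNF plus WBG against untreated shares the untreated libraries with the first comparison, so the pair are not independent and their values are set side by side only. Of the 7 AP-1 genes tested, 2 were called higher and 3 lower, where 5.52% of all genes were higher and 3.67% lower (9.19% in all). Groups did not overlap for 5 of the 7 (2 with TNF plus WBG above and 3 with it below), against 28.1% of all genes tested (14.5% above and 13.6% below), and 6 of 7 passed at an unadjusted p under 0.05, against 22.8%. Jun had a log2 fold change of -1.14 ± 0.04 with TNF plus WBG (limma adjusted p = 9.56e-07), against -1.31 with TNF alone. Atf3 had -1.26 ± 0.06 (limma adjusted p = 5.62e-06), against -1.55. Fos had -0.72 ± 0.13 (limma adjusted p = 0.0076), against -0.85. By size of decrease Atf3 stood 23rd, Jun 30th and Fos 98th among all genes tested. Junb had 0.46 ± 0.05 (limma adjusted p = 0.000594), against 0.45, and Jund 0.26 ± 0.05 (limma adjusted p = 0.0167), against 0.25.

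The Jund call was lost without TNF plus WBG replicate 2 (limma adjusted p = 0.0635), the library with its highest value. Fosl1, at 0.47 ± 0.16, was not called (limma adjusted p = 0.103) but passed without TNF plus WBG replicate 3 (0.0331), its lowest WBG library. Fosl2 had -0.11 (limma adjusted p = 0.415). Fosb was lower in every TNF plus WBG library than in any untreated one, beside 28.1% of all genes tested without overlap in either direction. The exact permutation test again gave p = 0.1, which only restates the lack of overlap. Jun made up 18.6 ± 1.13% of the Jun-type sum with TNF plus WBG and 39.5 ± 1.56% in untreated libraries, and the ratio of Jun to Junb was 0.477 ± 0.044 with TNF plus WBG and 1.47 ± 0.07 in untreated libraries. All 10 genes together summed to 299 to 322 FPKM with TNF plus WBG, 285 to 294 FPKM with TNF and 348 to 364 FPKM in untreated libraries.

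The genes whose levels ran most like Jun and Atf3 were ranked by Pearson r of log2 FPKM + 1 over the 9 libraries, among 9118 genes with a mean of at least 5 FPKM. As the libraries form 3 groups, r here mostly restates the group means. For Jun the 5 highest were Tubb3, a neuronal tubulin (r = 0.999), Sema4f, a semaphorin (0.998), Gm45869 (0.997), Tgfbi, a matrix protein (0.995), and Ngfr, the low-affinity neurotrophin receptor (0.995). For Atf3 they were Kcna1, a potassium channel (0.998), Tubb3 (0.997), Gm45869 (0.995), Ngfr (0.995) and the semaphorin Sema3e (0.994). Tubb3, near the top for both, had a mean of 19.8 FPKM with TNF plus WBG, 16.1 FPKM with TNF and 55.3 FPKM in untreated libraries. Ngfr had 103 FPKM with TNF plus WBG, 97.0 FPKM with TNF and 169 FPKM in untreated libraries. For Fos the 5 were Zfp866 (0.987), the filamin Flnc (0.976), the DNA repair enzyme Ogg1 (0.972), Epb41l4b (0.969) and Tenm3 (0.969). Flnc had 33.9 FPKM with TNF plus WBG, 32.7 FPKM with TNF and 41.9 FPKM in untreated libraries. Epb41l4b had 5.13 FPKM with TNF plus WBG, 4.32 FPKM with TNF and 7.98 FPKM in untreated libraries.

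Other bZIP genes, which can pair with or compete against AP-1 proteins, mostly went up where they were called with TNF. Of 29 tested (32 listed) 8 rose and 1 fell against untreated, where 6.43% of all genes tested were higher and 4.21% lower. The median log2 fold change was 0.03 in this list and 0 over all genes tested. Without TNF replicate 2, 5 rose, and without TNF replicate 3, 2 fell. Jdp2, a repressor that occupies AP-1 sites, rose to 28.2 ± 2.09 FPKM with TNF, against 18.9 ± 1.09 FPKM in untreated libraries (log2 fold change 0.55, limma adjusted p = 0.000968). Cebpd, an inflammation-induced C/EBP factor (0.59, adjusted p = 0.000566, limma), and Nfe2l1, a regulator of proteasome genes (0.56, 4.55e-05), rose as well. Maf, a large Maf protein, fell by 0.54 (limma adjusted p = 0.0068).

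Among 33 immediate early genes tested beside the AP-1 genes (37 listed) 7 rose and 8 fell, with a median log2 fold change of -0.06. Over all genes tested 6.43% were higher and 4.21% lower. Leaving out untreated replicate 3, or else TNF replicate 3, brought the falls to 5. Dusp5, a phosphatase that switches off ERK, fell to 1.73 ± 0.34 FPKM with TNF, against 3.88 ± 0.40 FPKM in untreated libraries (log2 fold change -0.84, limma adjusted p = 0.00133). Gadd45a, a stress and DNA damage gene, fell by 0.64, and the zinc finger gene Egr3 by 0.59, whose call was lost without untreated replicate 3 (limma adjusted p = 0.0527) or TNF replicate 3 (0.0596). Egr1, a close relative chosen after its values were seen, had a log2 fold change of -0.57 (limma adjusted p = 0.00223). Ier3 (0.70), Gadd45b (0.49) and Nfkbiz, an atypical IκB protein (0.44), rose.

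Of 40 genes tested (43 listed) for kinases, transcription factors and ubiquitin ligases that act on AP-1 genes or proteins, 3 rose and 1 fell, with a median log2 fold change of -0.03. That is close to the 10.6% called among all genes tested (6.43% higher and 4.21% lower). Mapk9, which encodes the Jun N-terminal kinase JNK2, fell by 0.29 on the log2 scale (limma adjusted p = 0.0184). Its call was lost without untreated replicate 3 (0.0688), TNF replicate 2 (0.0656) or TNF replicate 3 (0.0623). The number of falls was 0 without TNF replicate 2 or 3 and 2 without TNF plus WBG replicate 2. Mapk11 and Mapk12, p38 kinases, had log2 fold changes of 0.82 and 0.48 and rose. The kinase gene Rps6ka4 rose by 0.26 (limma adjusted p = 0.0206), a call that ended when replicate 1 or 2 of either the TNF or the untreated group was left out (up to 0.0736).

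Of 21 textbook AP-1 target genes tested (34 listed) 7 rose and 2 fell, beside 6.43% higher and 4.21% lower over all genes tested, and the median log2 fold change was 0.22. Ccnd1, cyclin D1, rose to 122 ± 1.5 FPKM with TNF, against 84.9 ± 2.31 FPKM in untreated libraries (log2 fold change 0.51, limma adjusted p = 3.01e-05). Ccl2, a monocyte-attracting chemokine on which NF-κB acts as well, rose by 2.85 on the log2 scale. Mmp9, gelatinase B, counted among the rises, had 4.14 FPKM with TNF and 0.182 FPKM in untreated libraries. It passed the filter on low values through the TNF-treated groups alone, so it had to differ. Vim, vimentin, also counted among the fibroblast markers, fell by 0.28. Its call was kept in the omissions of untreated replicate 3 and TNF replicate 2 and lost in the other 7 (limma adjusted p up to 0.128). Spp1, osteopontin, fell by 0.19 with TNF and was the 1 gene of the 21 called between TNF plus WBG and TNF, where it rose by 0.33 (limma adjusted p = 0.00917). Leaving out TNF replicate 2 (0.0578), TNF replicate 3 (0.0647) or the first WBG library (0.0523) ended the call. The fall count of this list was 1 in each of the 7 omissions that ended the call of Vim. Its rises ranged from 5 (without TNF replicate 3) to 8 (without TNF plus WBG replicate 3).

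Atf3 is also a target of the integrated stress response, the arm of gene control driven by phosphorylated eIF2α and ATF4. Of 24 other genes of that response tested (26 listed), 8 rose with TNF and 0 fell by limma, with a median log2 fold change of 0.11. Over all genes tested 6.43% were higher and 4.21% lower. An unadjusted p under 0.05 was reached by 10 of the 24, against 24% of all genes. Leaving out untreated replicate 1 brought the rises to 5 and the falls to 1. There were 5 rises in the absence of TNF replicate 3, and 4 in that of untreated replicate 3, TNF replicate 1 or TNF replicate 2. Nupr1 (0.78), Ddit3, which encodes CHOP (0.41), and Chac1 (0.39) rose. The lists share genes: Ddit3 and Atf5 were counted among the rises of the bZIP list as well. The call of Chac1 was lost in 6 omissions (untreated replicates 1 and 3, TNF replicates 1 and 2, TNF plus WBG replicates 1 and 2; limma adjusted p up to 0.125). Atf4 itself had a log2 fold change of 0.11 (limma adjusted p = 0.477).

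In the other 4 lists, between TNF plus WBG and TNF, 0 genes were called by limma. An unadjusted p under 0.05 was reached by 6 of 29 bZIP genes, 6 of 33 immediate early genes, 7 of 40 regulators and 5 of 24 stress response genes, against 9.06% of all genes tested. Leaving out the third WBG library brought the stress response calls to 1, a gene that was higher with WBG. Exons of Cebpd, Jdp2, Maf, Dusp5, Gadd45a, Rps6ka4, Ccnd1, Spp1, Ddit3, Gm45869, Ogg1, Zfp866 and Tenm3 overlap another annotated gene, so their values are less certain.

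**Figure D4:**
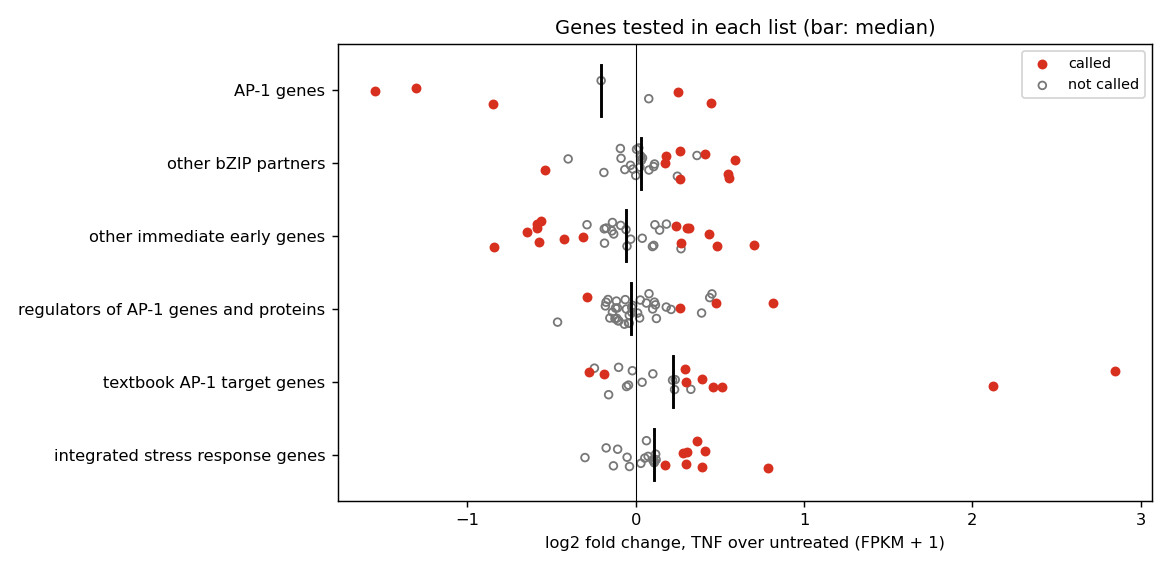
Log2 fold change of TNF over untreated (horizontal axis, FPKM + 1) for the genes tested in the AP-1 list and 5 related lists (rows). Filled points were called by limma at an adjusted p under 0.05, open points were not, and the vertical bar is the list's median, from -0.21 for the AP-1 genes to 0.22 for textbook AP-1 targets.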

How the data were processed

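Poly-A RNA of 9 libraries was sequenced as paired-end reads on an Illumina NovaSeq instrument, per the labels' protocols. The authors deposited one FPKM value per gene and library; aligner, quantifier, annotation and build: not given in the sources used here. The table holds no counts. For single-exon genes the product of FPKM and length often fell on whole steps (22.7 to 25.5% lay no more than 0.02 away from one, against 4% for an even spread), too few to recover counts, so depth is unknown and no counting interval is given.

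GENCODE M21 gave a symbol for 55144 of the 56289 identifiers. Genes with at least 1 FPKM in at least 3 libraries were kept (13026). Values were put on a log2 scale after adding 1 (the pseudocount). A single limma model (version 3.58.1, under R 4.3.3) held the 9 libraries and their group, letting the prior spread vary with level (trend). Two-sided p-values received Benjamini-Hochberg adjustment over all genes kept. Fold changes on this scale understate those of low genes. The fit was tested on simulated data. Other gene names follow a rule: up to 3 called members of each list in each direction with TNF, any member called with WBG, and the 5 genes most like Fos, Jun and Atf3. The AP-1 genes and the lists were chosen with earlier results of these data known. Alternatives were other pseudocounts, filters, scalings and limma settings, a fit of the 6 libraries compared, a replicate block and omission of each library. Python 3.11.15, numpy 2.4.6, pandas 2.3.3, scipy 1.17.1 and matplotlib 3.10.9 were used.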

Additional observations from a re-analysis of the deposited data

How the results depend on the processing

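Of 399 recomputed log2 fold changes of the 7 AP-1 genes tested, 389 kept their direction and their side of the threshold. Jun, Junb, Fos and Atf3 kept both in TNF against untreated and in TNF plus WBG against untreated under all 19 alternatives. The calls that moved are given above for Jund, Fosl1 and Fosl2. Signs near 0 turned in 4 cases: Fosl1 with TNF without untreated replicate 3 (-0.0025, up to 0.20 over the omissions), and, between TNF plus WBG and TNF, Junb (-0.034, up to 0.056) and Jund (-0.027, up to 0.032) without TNF plus WBG replicate 2 and Jund (-0.0074) without TNF replicate 3.

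Over the omissions of 1 library, 1 to 2 AP-1 genes were higher and 3 to 4 lower with TNF, and 1 to 3 higher with TNF plus WBG against untreated. Over all genes, 920 to 1299 were called with TNF (353 to 515 lower, 561 to 784 higher), 8 to 14 between TNF plus WBG and TNF (1 to 5 lower), and 814 to 1113 between TNF plus WBG and untreated (319 to 436 lower). With only the 6 libraries compared, 7 genes were called between TNF plus WBG and TNF, 1 of them lower; fewer samples stand behind that spread.

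No sign of pairing by replicate number was seen, though 3 libraries per group cannot settle whether the libraries were paired. Deviations of same-numbered libraries correlated between -0.072 and 0.107, those of others between -0.096 and 0.095. With the replicate block 8 genes were called between TNF plus WBG and TNF, 2 of them lower, against 13 and 4, and the cause was not tested. It gave 1159 calls with TNF and 1046 with TNF plus WBG against untreated, and it changed no AP-1 call.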
